A study of Homo sapiens with 6 samples.

Results

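The genes described here are 8 genes of chromatin reading and of the control of transcription elongation, chosen by symbol from the 36601 genes of the deposited matrices: BRD2, BRD3, HEXIM1, LARP7, CDK9, CCNT1, CCNT2 and AFF4. All 8 were found, and all 8 passed the filter on low counts. They were measured by Seq-Well S3, which traps cells and barcoded beads together in an array of tiny wells, in the human neuroblastoma cell line SK-N-BE(2)-C. The 6 libraries formed 3 groups of 2, all from this line: cells given DMSO, a common solvent, cells given TSA (short for trichostatin A, which blocks histone deacetylases), and cells given E6R. By its title the series concerns a compound that inhibits a histone deacetylase complex without acting on the enzyme, with few changes in transcripts, and the comparisons below ask how the 8 genes stood under each treatment. Neither dose nor time nor a structure for E6R was found in the labels, so the treatments are compared as labelled and not at matched doses. Every cell came from 1 line, and the labels do not say whether the 2 libraries of a group came from separate cultures, so p-values measure only the spread between these libraries.

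BRD2 and BRD3 are BET proteins, whose bromodomains bind acetylated histones and help to bring the transcription machinery to active chromatin. Soon after initiation RNA polymerase II pauses near the promoter, and P-TEFb, the kinase CDK9 with cyclin T1 (CCNT1) or cyclin T2 (CCNT2), phosphorylates the polymerase and pausing factors to release it. P-TEFb is held inactive by HEXIM1 on the 7SK small nuclear RNA, which LARP7 protects, and AFF4 is the scaffold of the super elongation complex that carries active P-TEFb. Neuroblastoma lines with MYCN amplification are widely studied for their dependence on BET proteins and P-TEFb.

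Cells were barcodes with 500 or more detected genes and at most 20% of their counts from mitochondrial genes, which left 17589 cells, between 1861 and 3946 per library. A count is 1 unique molecular identifier (UMI), in effect 1 captured transcript, and levels are given in CPM, a gene's UMIs scaled to the UMI total of the library's cells, after TMM scaling. Depth differed: the cells of the DMSO libraries held 4206366 and 4793493 UMIs, those of TSA 14282282 and 13318200, and those of E6R 15781024 and 26180262. Mitochondrial genes took 1.55% and 1.51% of UMIs under E6R and between 5.83% and 9.71% in the other 4 libraries, and the 1% of cells with most UMIs held 22.9% of the UMIs of E6R replicate 2 against 8.95% to 15.6% elsewhere. Any pair of libraries shared between 11 and 58 cell barcodes. All 10 adrenergic neuroblastoma markers were detected in every library, with summed levels of 3457 to 5964 CPM, while markers of immune, epithelial and red cells summed to at most 11.9, 23.5 and 2.50 CPM. Mesenchymal markers summed to 829 to 3065 CPM.

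The promoters of HEXIM1 and BRD3 are shown because these were the genes called between TSA and DMSO, one in each direction. Each line holds the 250 bases before the RefSeq start site on the gene's strand (GRCh38.p14), with matches of the searched motifs in capitals. HEXIM1 is at chr17:45148225-45148474 (plus strand) and BRD3 at chr9:134068027-134068276 (minus strand). RefSeq and GENCODE starts differ: the BRD3 window lies inside the GENCODE span given for the gene below, though in no annotated exon, and that of HEXIM1 overlaps a non-coding transcript on the opposite strand.
HEXIM1: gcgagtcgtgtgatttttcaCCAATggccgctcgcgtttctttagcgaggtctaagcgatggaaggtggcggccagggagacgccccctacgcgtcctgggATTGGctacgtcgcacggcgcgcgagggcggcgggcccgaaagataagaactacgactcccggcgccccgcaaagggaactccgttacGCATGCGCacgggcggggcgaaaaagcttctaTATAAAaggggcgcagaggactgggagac
BRD3: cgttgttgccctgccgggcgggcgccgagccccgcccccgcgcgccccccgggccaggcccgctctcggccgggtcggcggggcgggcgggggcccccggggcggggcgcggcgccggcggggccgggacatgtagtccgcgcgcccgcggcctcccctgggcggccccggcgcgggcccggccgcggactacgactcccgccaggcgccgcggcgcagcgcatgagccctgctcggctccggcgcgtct

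The motifs, chosen after the sequences were seen and searched on both strands, were TATAAA (the TATA box), CCAAT (the CCAAT box), CACGTG (the E-box bound by MYC proteins) and GCATGCGC (the core bound by NRF1), which 10.7%, 32.0%, 6.35% and 2.63% of 35116 RefSeq promoters of the same length hold. HEXIM1 was the only one of the 8 genes with TATAAA, 29 bases before the start, and it also had GCATGCGC at 61 bases and CCAAT at 230 and 149 bases before it. CCNT2 had CCAAT and a pair of GCATGCGC matches on opposite strands that share 6 bases. CDK9 and BRD3 held none of the 4, and had GC contents of 82.0% and 86.8% beside 62.4% for HEXIM1, 69.6% for CCNT2 and a median of 58.0% for all promoters. LARP7 and CCNT1 each had 2 RefSeq starts. LARP7 had CCAAT at 152 and 26 bases before 1 of them, and CCNT1 at 187 bases before 1 of its own. The window before the other start of each gene held none of the 4 motifs. A RefSeq start was found for all 8 genes. E-boxes lay before AFF4 and before the CCNT1 start with CCAAT, and none of these motifs lay before any of the 4 BRD2 starts. A match is a string of letters and does not show that a factor binds there.

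Of the 8 genes, 2 passed the test between TSA and DMSO (edgeR's quasi-likelihood test, Benjamini-Hochberg adjusted p under 0.05), HEXIM1 upward and BRD3 downward, in a comparison that called 29.7% of the 16763 genes tested. None of the 8 passed between E6R and DMSO, where 0% of genes were called, and 5 passed between E6R and TSA, where 38.2% were. Under TSA 16.2% of all genes were called higher and 13.5% lower. Between E6R and TSA 18.7% were called higher and 19.5% lower under E6R. A share of 2 in 8 is close to the share of all genes under TSA. The 3 comparisons share libraries, so a gene that stands apart under TSA enters both comparisons with TSA.

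**Figure D1:**
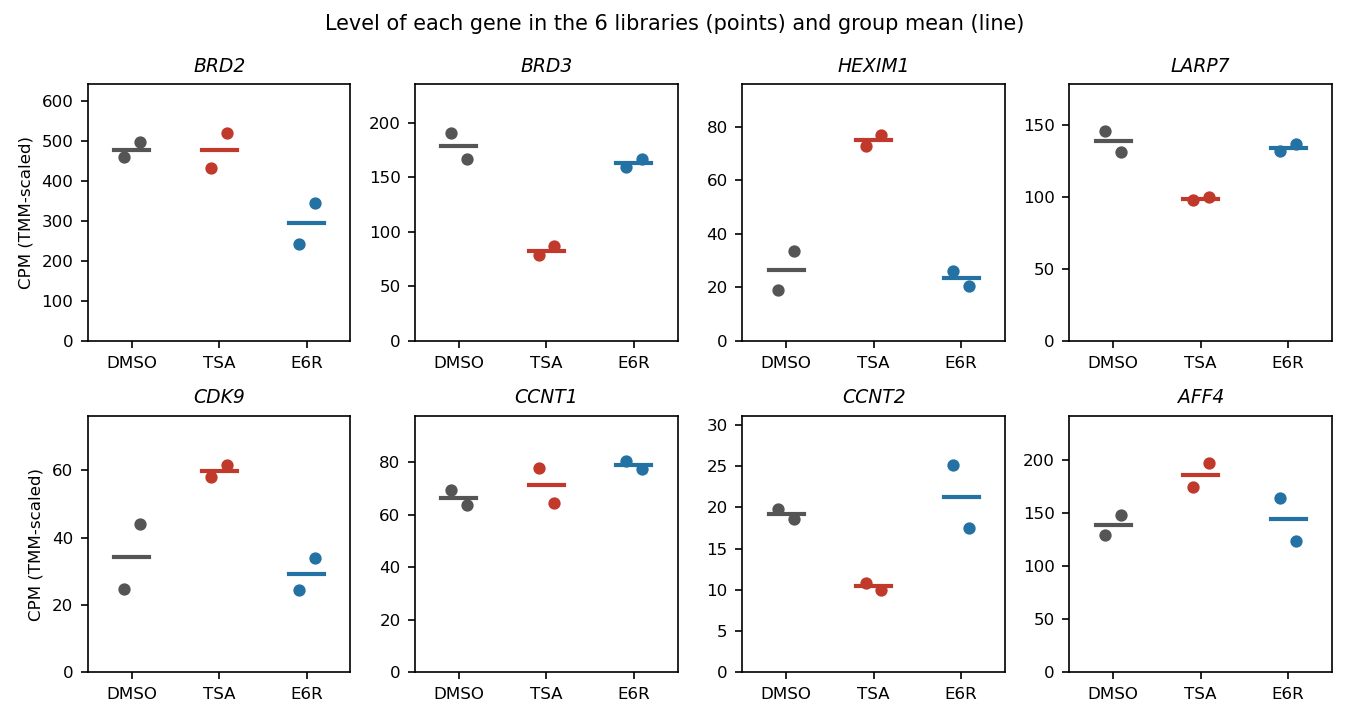
Level of each of the 8 genes in every library, in TMM-scaled CPM on linear axes that start at 0, by treatment. Points are libraries and lines are group means. HEXIM1, CDK9 and AFF4 were highest in both TSA libraries, BRD3, LARP7 and CCNT2 were lowest there, and BRD2 was lowest in both E6R libraries.

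HEXIM1, the inhibitor of P-TEFb, lies at chr17:45148502-45152101 on the plus strand (GRCh38, GENCODE 29) and was the member with the largest change. It stood at 19.1 and 33.7 CPM under DMSO, 72.9 and 77.0 CPM under TSA, and 26.2 and 20.5 CPM under E6R. Both TSA libraries lay above all 4 others, while the E6R values fell inside the range of the DMSO pair. HEXIM1 rose 2.83-fold with TSA (1.50 on the log2 scale, SE 0.30, edgeR adjusted p = 0.00864). Against E6R the same TSA libraries were 3.21-fold higher (log2 fold change of E6R against TSA -1.68, SE 0.29, adjusted p = 0.00360). E6R differed from DMSO by -0.18 on the log2 scale, with a 95% interval from -0.85 to 0.49 (adjusted p = 0.784). The rise under TSA lost its call without TSA replicate 2, at the same size (1.50, adjusted p = 0.0621), and among cells called G1 its size was 0.60 (adjusted p = 0.298). The difference between E6R and TSA also lost its call among G1 cells (-0.90, adjusted p = 0.0798).

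LARP7, the 7SK-binding partner of HEXIM1 (chr4:112636964-112657592, plus strand), had its lowest levels under TSA. Its levels were 146 and 131 CPM under DMSO, 98.2 and 99.9 CPM under TSA, and 132 and 137 CPM under E6R. Both TSA libraries lay below all others, by about the same amount, and DMSO and E6R overlapped. The difference between TSA and DMSO was -0.49 on the log2 scale (SE 0.18, 95% interval -0.90 to -0.08) and did not pass the test (adjusted p = 0.0732), nor did E6R against TSA (0.44, adjusted p = 0.0831). Of 20 alternative analyses, LARP7 passed in 3 for TSA against DMSO and in 4 for E6R against TSA. Per LARP7 UMI there were 0.742 and 0.771 HEXIM1 UMIs under TSA, against 0.131 and 0.256 under DMSO and 0.199 and 0.150 under E6R. The ratio of the 2 components of the 7SK particle therefore separated TSA from the other groups without any scaling of the libraries, although 2 libraries against 2 cannot give an exact permutation p under 0.333.

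Among the readers, BRD3 (chr9:134030305-134068535, minus strand) fell under TSA, and BRD2 (chr6:32968660-32981505, plus strand) had overlapping libraries. BRD3 stood at 190.4 and 167 CPM under DMSO, 78.5 and 86.7 CPM under TSA, and 159 and 167 CPM under E6R. The TSA libraries held less than any other, and DMSO and E6R overlapped. BRD3 fell 2.16-fold under TSA (log2 fold change -1.11, SE 0.19, adjusted p = 0.00494), and was 1.98-fold higher under E6R than under TSA (0.98, SE 0.19, adjusted p = 0.00511). E6R differed from DMSO by -0.13, with a 95% interval from -0.55 to 0.29 (adjusted p = 0.753). Both calls were lost without TSA replicate 1, where the values were -1.01 (adjusted p = 0.0568) and 0.92 (adjusted p = 0.0545). A transcript on the opposite strand, BRD3OS, overlaps BRD3, and since no source here states the strand counted, reads of the pair could have been split either way.

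BRD2 gave 458 and 496 CPM under DMSO, 432 and 519.6 CPM under TSA, and 243 and 344 CPM under E6R. The DMSO and TSA libraries overlapped, and both E6R libraries lay below them, though far from each other. TSA and DMSO differed by 0.00 on the log2 scale, with a 95% interval from -0.54 to 0.53 (adjusted p = 0.990). E6R lay 0.70 below DMSO in log2 terms (log2 fold change -0.70, SE 0.23, 95% interval -1.24 to -0.17), the largest difference of any member between these groups, and it did not pass (unadjusted p = 0.0166, adjusted p = 0.223). Without E6R replicate 1 it was -0.36 (adjusted p = 0.501). Against TSA the same difference, -0.70, passed narrowly (adjusted p = 0.0459) and was lost in 15 of 20 alternative analyses. Without E6R replicate 1 it was -0.39 (adjusted p = 0.283), and with cells thinned to 1000 UMIs it was -0.27 (adjusted p = 0.531). E6R replicate 2 is also the library with 22.9% of its UMIs in 1% of its cells, and with the deepest 5% of cells removed from every library the difference was -0.41 (adjusted p = 0.312). BRD2 overlaps HLA-DMA on the opposite strand. Genes annotated on the opposite strand also overlap HEXIM1 (AC138150.1), LARP7 (ZGRF1 and others), CCNT2 (CCNT2-AS1) and AFF4, with the same limit as for BRD3.

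The balance of the readers followed from these levels. There were 2.41 and 2.98 BRD2 UMIs for each BRD3 UMI under DMSO, 5.50 and 5.99 under TSA, and 1.52 and 2.06 under E6R. The 3 groups did not overlap, and the 95% counting intervals of every TSA library (5.15 to 5.88 and 5.60 to 6.41) lay above those of all others. These are ratios of captured transcript ends of 2 genes and do not give the ratio of the proteins.

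The kinase of P-TEFb, CDK9 (chr9:127785679-127790787, plus strand), had its highest levels in the same libraries as its inhibitor. Its values were 24.6 and 44.0 CPM under DMSO, 58.1 and 61.6 CPM under TSA, and 24.3 and 33.8 CPM under E6R. Both TSA libraries were above the rest, and the DMSO pair was spread more widely than the other pairs. TSA against DMSO gave a log2 difference of 0.80 (SE 0.31, 95% interval 0.09 to 1.51) that did not pass (adjusted p = 0.0847). With the replicate number as a term in the fit the difference passed, though the labels name nothing else that same-numbered libraries share. It was 0.48 without DMSO replicate 1 (adjusted p = 0.307) and 1.201 without DMSO replicate 2, where it passed (adjusted p = 0.0489). E6R against TSA gave -1.04 (SE 0.30, adjusted p = 0.0285), which did. The call between E6R and TSA was lost without either TSA library or without E6R replicate 1 (adjusted p from 0.105 to 0.138), and with total counts as the scaling (-0.86, adjusted p = 0.0535). Per CDK9 UMI the libraries held 0.776 and 0.765 HEXIM1 UMIs under DMSO, 1.25 and 1.25 under TSA, and 1.08 and 0.606 under E6R. In both TSA libraries HEXIM1 UMIs outnumbered those of the kinase it inhibits, as they did in 1 of the E6R libraries, where the 95% counting interval (0.936 to 1.24) includes equal numbers.

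The cyclins were measured separately. CCNT2 (chr2:134918235-134959342, plus strand) had 19.8 and 18.6 CPM under DMSO, 10.9 and 10.01 CPM under TSA, and 25.1 and 17.5 CPM under E6R, and its TSA libraries again were the lowest. Its difference between TSA and DMSO, -0.87 (SE 0.28, 95% interval -1.53 to -0.22), missed the threshold narrowly (adjusted p = 0.0501) and passed in 11 of 20 alternatives. Between E6R and TSA it passed, at 1.03 (SE 0.28, adjusted p = 0.0214). That call was lost without either TSA library or without E6R replicate 1 (adjusted p from 0.0625 to 0.147), with cells thinned to 1000 UMIs (0.85, adjusted p = 0.0753) and among G1 cells (0.69, adjusted p = 0.190).

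CCNT1 (chr12:48688458-48716998, minus strand), which overlaps no other annotated gene, gave 69.3 and 63.5 CPM under DMSO, 77.9 and 64.3 CPM under TSA, and 80.4 and 77.4 CPM under E6R. DMSO and TSA overlapped, and the differences were 0.10 for TSA (95% interval -0.34 to 0.54) and 0.25 for E6R (-0.19 to 0.69), neither past the test (adjusted p = 0.714 and 0.527). There were 7.17 and 6.43 CCNT1 UMIs for each CCNT2 UMI under TSA, against 3.51 and 3.42 under DMSO and 3.20 and 4.43 under E6R. The share of cyclin T transcripts from CCNT2 was thus lower in both TSA libraries than in any other.

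AFF4, the scaffold of the super elongation complex (chr5:132875379-132963634, minus strand), had 129 and 149 CPM under DMSO, 174 and 198 CPM under TSA, and 164 and 124 CPM under E6R. The TSA pair was above all others by a small margin, and the E6R pair enclosed the DMSO pair. Its differences were 0.42 for TSA against DMSO (95% interval -0.07 to 0.91, adjusted p = 0.170), 0.05 for E6R against DMSO (-0.44 to 0.54, adjusted p = 0.916) and -0.37 for E6R against TSA (-0.86 to 0.12, adjusted p = 0.203).

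**Figure D2:**
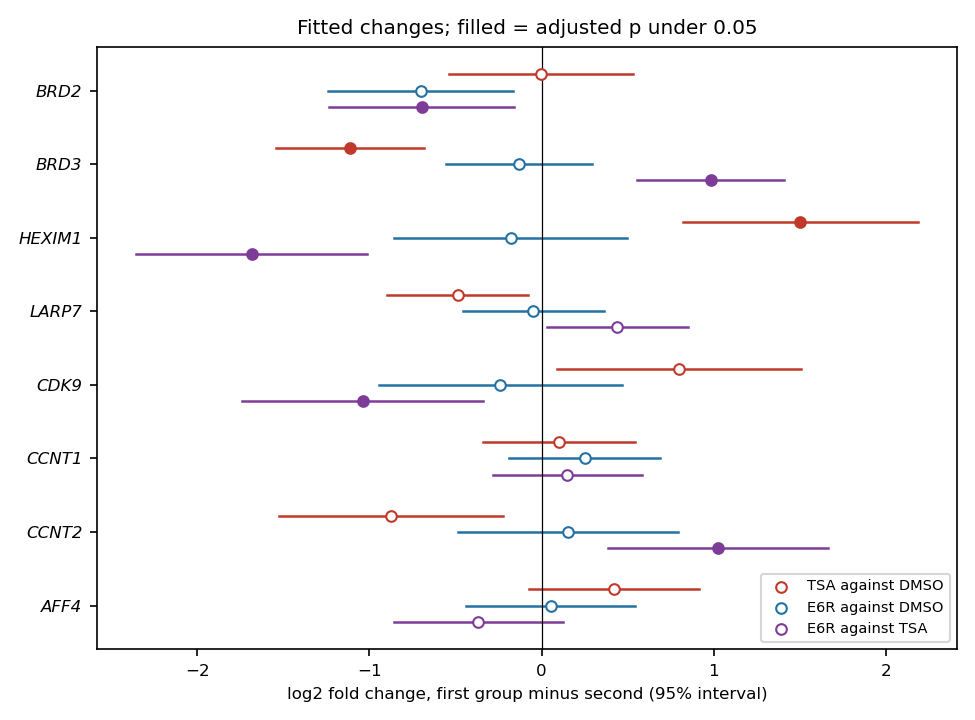
Fitted log2 fold changes of the 8 genes (x axis, first group minus second) with 95% intervals, for TSA against DMSO, E6R against DMSO and E6R against TSA. Filled points have an adjusted p under 0.05. All 8 points for E6R against DMSO are open. For all genes but BRD2 and CCNT1, TSA against DMSO lies on the opposite side of 0 from E6R against TSA. Both comparisons use the same TSA libraries with opposite sign.

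Under TSA, 6 of the 8 genes had libraries that did not overlap those of DMSO, all but BRD2 and CCNT1, beside 71.3% of all tested genes. Between E6R and DMSO the same held for 2 genes, BRD2 and CCNT1, beside 47.3% of all genes. Between E6R and TSA it held for 7 genes, all but CCNT1, beside 72.6%. For E6R against DMSO the count of 0 was the same with DESeq2, which called 3.09% of all genes (431), and with the replicate number as a term, which called 0.113%. At an unadjusted p under 0.05 edgeR gave 17.4% of all genes and 1 of the 8, BRD2. The interval of the 7 other genes between E6R and DMSO reached at most 0.95 in size, so that larger changes than this lie outside the intervals and smaller ones of either sign lie within them.

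How library totals are scaled mattered more for the smaller changes than for HEXIM1 and BRD3. With total counts in place of TMM, the median log2 fold change of all genes between TSA and DMSO moved from -0.01 to -0.32. Of the 8 genes, 1 was then called higher (HEXIM1) and 3 lower (BRD3, LARP7 and CCNT2), beside 1717 higher and 3361 lower of all genes. With the size factors of DESeq2 the split was 1 higher and 2 lower (BRD3 and CCNT2), beside 2567 higher and 2400 lower of all genes. Between E6R and TSA, 2 genes were higher (BRD3 and CCNT2) and 3 lower (BRD2, HEXIM1 and CDK9) with TMM, against 3 higher and 1 lower with total counts and 2 of each with those size factors. Of all genes, 3141 were called higher and 3267 lower with TMM, 3731 and 2659 with total counts, and 3294 and 3109 with those size factors. HEXIM1 and BRD3 kept their direction and call under all 3 scalings in both comparisons.

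**Figure D3:**
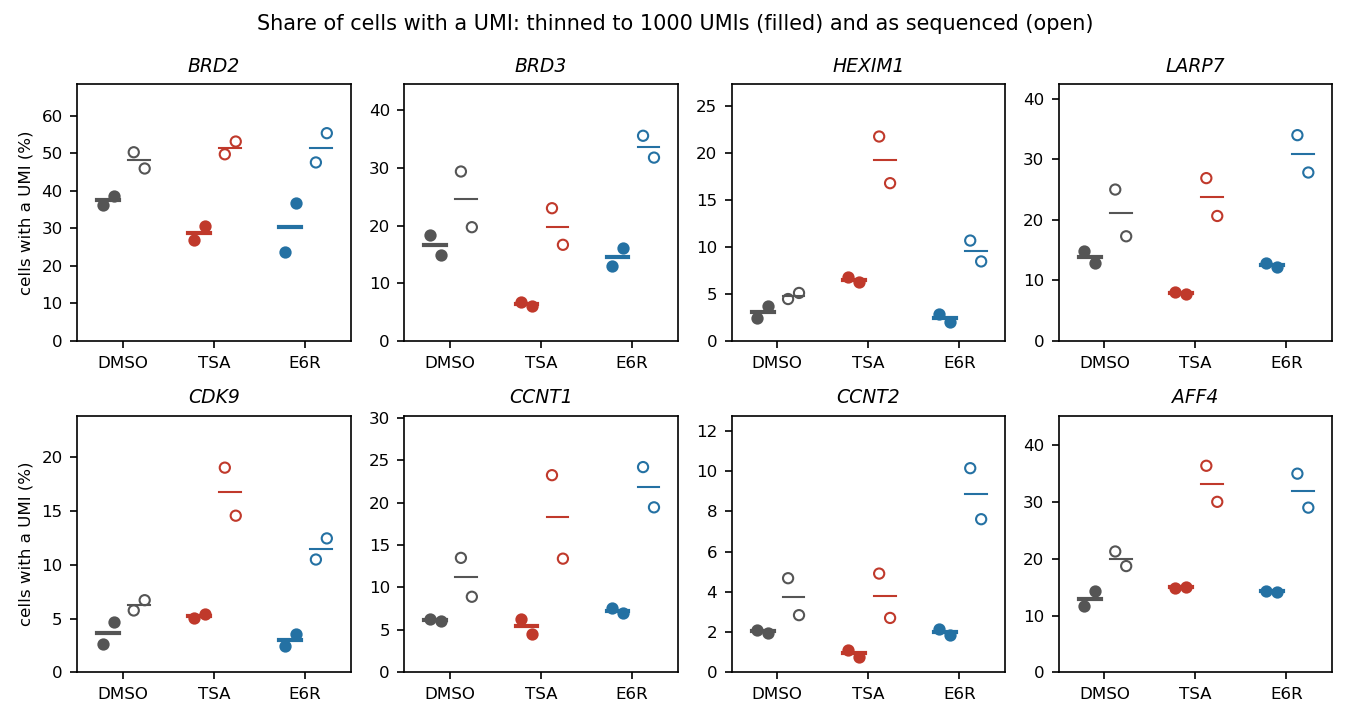
Share of cells with at least 1 UMI of each gene, in percent, by library. Filled points are cells thinned to 1000 UMIs, open points are cells as sequenced, and lines are group means. After thinning the HEXIM1 share was highest (6.80% and 6.27%) and the BRD3 share lowest (6.75% and 5.99%) in the TSA libraries.

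Levels of this kind could come from a few cells, so the share of cells with a UMI was compared after each cell had been thinned to 1000 UMIs. Cells under that number were left out, 2124 of DMSO, 1118 of TSA and 2410 of E6R. No TMM scaling enters these shares, unlike the CPM values. HEXIM1 was found in 2.44% and 3.69% of thinned DMSO cells, 6.80% and 6.27% of TSA cells, and 2.91% and 2.02% of E6R cells. As sequenced the shares were 4.46% and 5.11%, 21.8% and 16.8%, and 10.7% and 8.46%. Both forms put the TSA libraries highest, and the thinned form puts E6R beside DMSO.

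BRD3 was found in 18.4% and 14.9% of thinned DMSO cells, 6.75% and 5.99% of TSA cells, and 13.1% and 16.2% of E6R cells (29.4% and 19.7%, 23.0% and 16.7%, and 35.6% and 31.8% as sequenced). The TSA libraries were lowest after thinning, whereas TSA and DMSO overlapped as sequenced. LARP7 was found in 14.9% and 12.8%, 8.10% and 7.82%, and 12.9% and 12.2% of thinned DMSO, TSA and E6R cells (25.0% and 17.3%, 26.9% and 20.6%, and 34.0% and 27.8% as sequenced). For CDK9 the thinned shares were 2.61% and 4.70%, 5.02% and 5.38%, and 2.46% and 3.59%, in the order DMSO, TSA and E6R (5.75% and 6.70%, 19.0% and 14.6%, and 10.5% and 12.4% as sequenced). CCNT2 was the rarest after thinning, in 2.11% and 1.96%, 1.13% and 0.753%, and 2.14% and 1.84% of cells (4.67% and 2.84%, 4.90% and 2.704%, and 10.1% and 7.60% as sequenced). All 4 thinned shares kept the order of the CPM values between TSA and DMSO.

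BRD2 did not keep it: its thinned share was 26.9% and 30.5% under TSA against 36.3% and 38.7% under DMSO, without overlap, while the CPM overlapped. The exact permutation p was 0.333 for BRD2 and for each of those 4 genes, so neither the match nor the mismatch passed a test. Under E6R the thinned share of BRD2 was 23.7% and 36.7% (as sequenced 50.2% and 45.9%, 49.7% and 53.1%, and 47.5% and 55.3%, in the order DMSO, TSA and E6R). The thinned shares lack the TMM scaling of the CPM. With total counts in place of TMM, BRD2 under TSA against DMSO was -0.32 on the log2 scale (edgeR adjusted p = 0.322). With TMM on the sums of cells thinned to 1000 UMIs it was -0.14 (edgeR adjusted p = 0.759). CCNT1 lay between 4.52% and 7.59% and AFF4 between 11.6% and 15.0% of thinned cells, and as sequenced between 8.91% and 24.2% and between 18.7% and 36.4%. With 2 libraries against 2, no difference in these shares can reach an exact permutation p under 0.333, which is what all but CCNT1 gave between TSA and DMSO.

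A cell line holds no other cell type in which these genes should be missing, so free RNA was looked at in barcodes with under 500 genes. The ratio of the level in cells to that in small barcodes ran from 0.549 to 1.71 over all 8 genes and 6 libraries, in CPM without TMM scaling. The lowest was that of BRD2 in E6R replicate 2, with 637 CPM in small barcodes and 349.5 CPM in cells, so BRD2 in small barcodes was highest in a library where it was low among cells. In small barcodes HEXIM1 stood at 50.3 and 52.4 CPM under TSA and at 24.4 to 29.3 CPM elsewhere, and BRD3 at 68.4 and 55.9 CPM under TSA and at 169 to 198 CPM elsewhere. Small barcodes can hold small cells, debris or free RNA, and what part of a share of cells came from free RNA was not tested.

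The 8 genes were then set against the other genes of elongation control, in lists of 46 genes of which 45 passed the count filter (BRDT, the testis BET gene, had 1 to 6 UMIs per library and was not tested). Under TSA, 15 of the 45 were called higher and 1 lower, so that 35.6% of the 45 were called beside 29.7% of all genes. Called or not, 34 of the 45 lay above 0 and 11 below it. Their median log2 fold change was 0.37 beside -0.01 for all genes. With total counts as the scaling the split was 8 higher and 4 lower, beside 1717 higher and 3361 lower of all genes. The median of the 45 was then 0.07 beside -0.32 for all genes. Without any 1 of the DMSO or TSA libraries the count of 16 dropped to between 4 and 7.

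In the super elongation complex and the 7SK particle outside the 8 genes, 3 of 10 were called higher and 1 lower under TSA. Called or not, 7 of the 10 lay above 0. The gene called lower was MEPCE, the enzyme that caps 7SK RNA. It had 49.7 and 48.8 CPM under DMSO, 12.8 and 12.5 CPM under TSA and 44.9 and 40.3 CPM under E6R. MEPCE changed most of those at 20 CPM or more, at -1.96 on the log2 scale (SE 0.21, adjusted p = 0.00121), and it was called in each of the 20 alternatives. Its TSA libraries lay far below the rest, on the opposite side of the other groups from those of HEXIM1. MLLT3, a chromatin reader of the super elongation complex, rose from 23.2 and 25.2 to 51.0 and 47.0 CPM (1.02, SE 0.22, adjusted p = 0.0117). The others called higher were ELL and EAF2, both under 20 CPM on average. HEXIM2, the paralogue of HEXIM1, gave 7.86 and 7.46 CPM under DMSO and 7.75 and 7.31 CPM under TSA (-0.02, adjusted p = 0.965).

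In the counts of each list below, a gene that rose is one called higher. They stand beside 16.2% of all genes called higher under TSA. Of 6 pausing factors 1 rose, a share near that background: SUPT5H, the large subunit of DSIF and a substrate of P-TEFb, from 95.4 and 82.2 to 179 and 188 CPM (1.05, SE 0.19, adjusted p = 0.00696). Of 11 genes of the PAF1 complex and other elongation factors 3 rose: CTR9, a scaffold of the PAF1 complex (1.26, adjusted p = 0.00447), SUPT6H, a histone chaperone that travels with the polymerase (0.98, adjusted p = 0.0260), and RTF1 (0.69, adjusted p = 0.0327). Of 6 other kinases and cyclins of the polymerase tail 3 rose: CCNK, the cyclin of CDK12 and CDK13 (1.23, adjusted p = 0.00559), and CDK7 and MNAT1, both of the CDK-activating kinase of TFIIH (1.10 and 0.82, adjusted p = 0.0209 and 0.0238). Of 12 polymerase II subunits 5 rose, led by POLR2B (1.23, adjusted p = 0.00982), POLR2L (1.23, adjusted p = 0.00421) and POLR2A, the largest subunit (1.22, adjusted p = 0.0128).

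**Figure D4:**
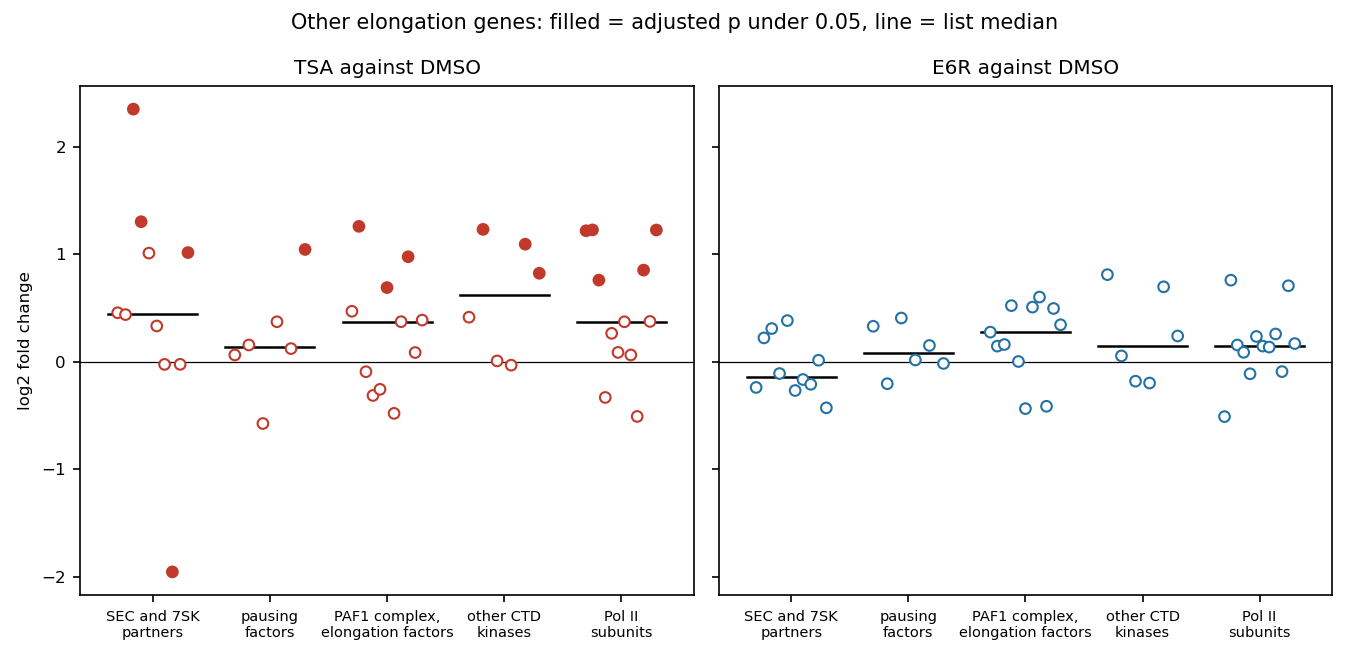
Log2 fold changes of the 45 other elongation genes tested, by list, for TSA against DMSO and E6R against DMSO. Filled points have an adjusted p under 0.05 and black lines are list medians. Filled points appear only for TSA against DMSO, 15 above 0 and MEPCE below at -1.96.

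Under E6R none of the 45 passed against DMSO (edgeR), beside 0% of all genes, and 7 of the 45 had an unadjusted p under 0.05, beside 17.4% of all genes. These 7, all higher under E6R, were LEO1, SUPT16H, SSRP1, CDK7, CCNH, POLR2B and POLR2K, with log2 differences from 0.51 to 0.81, and they were named after their values were seen. DESeq2 called 1 of them, SUPT16H, a subunit of the FACT histone chaperone. The median of the 45 was 0.15 beside 0.03 for all genes.

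Between E6R and TSA 17 of the 45 were called, 4 higher and 13 lower, beside 38.2% of all genes, and the count dropped to 10 and 9 without TSA replicate 1 and 2. MEPCE was 3.36-fold higher under E6R (1.75, SE 0.21, adjusted p = 0.000922), and NELFCD, LEO1 and SSRP1 were higher too (0.98, 0.84 and 0.99). NELFCD is a subunit of the pausing complex NELF. Lower under E6R, among others, were POLR2A (-1.73, adjusted p = 0.00231), MLLT3 (-1.45), SUPT6H (-1.39), CCNK (-1.18), RTF1 (-1.13), CTR9 (-1.12), SUPT5H (-1.06), POLR2L (-1.06), POLR2J (-0.94) and AFF1 (-0.70), with adjusted p from 0.00202 to 0.0488.

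Patterns over the 6 libraries were compared by the root mean square difference of log2 CPM after each gene had been centred on its own mean, as a description with no test. Among the 8 genes BRD3 and CCNT2 were the most alike, 0.22 apart, and BRD3 and HEXIM1 the least, 1.30 apart, while HEXIM1 and CDK9 were 0.39 apart. Of 7507 other genes at 20 CPM or more, those most like HEXIM1 were SLC23A2 (0.09) and TMEM184B (0.13), and those most like BRD3 were DNAJC2 (0.04) and CTCF (0.06). CTCF, the insulator protein, gave 205 and 201 CPM under DMSO, 84.9 and 97.2 CPM under TSA and 169 and 183 CPM under E6R.

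The gene most like CDK9 was BRD3OS (0.05), the transcript opposite BRD3, with 21.3 and 36.2 CPM under DMSO, 51.7 and 52.6 CPM under TSA and 21.4 and 27.0 CPM under E6R. BRD3OS was thus highest in the TSA libraries, where BRD3 was lowest. CFAP36 came next for CDK9 (0.07), GNPAT (0.07) was among those most like CCNT2, and BTBD2 (0.09) and GPR137 (0.10) most like BRD2. With 6 libraries in 3 groups, many genes can take a like shape.

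The cell cycle phase of each thinned cell was called from general S and G2/M genes that include none of the 8, and the levels of cells called S or G2/M were compared with those called G1 within each library. None of the 16 comparisons passed (exact two-sided sign-flip permutation test over 6 libraries, smallest possible p = 0.0312, adjusted p = 0.125 or more). LARP7 was higher in S by 0.24 ± 0.12 and in G2/M by 0.36 ± 0.09 on the log2 scale (SD over 6 libraries), in 6 of 6 libraries each. AFF4 was lower by 0.44 ± 0.13 in S and by 0.29 ± 0.12 in G2/M, also in 6 of 6 libraries each. All 4 of these had the smallest p that the test allows, and an adjusted p of 0.125. With 16 comparisons, 4 at the smallest p could not pass after adjustment, so no conclusion is drawn from the lack of a pass. With the deepest 5% of cells removed, LARP7 was higher in G2/M in 5 of 6 libraries and AFF4 lower in 4 of 6.

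**Figure D5:**
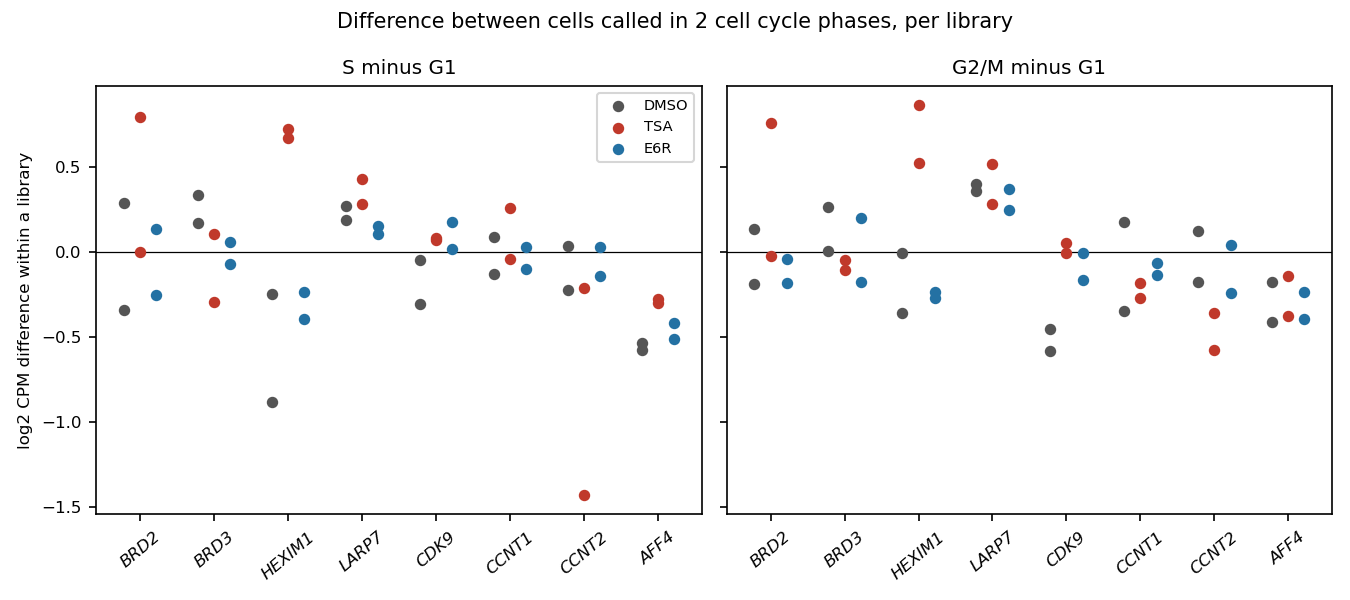
Log2 difference in CPM between cells called S and G1 (left) and G2/M and G1 (right) for each of the 8 genes, 1 point per library, coloured by treatment. All 6 points of LARP7 lie above 0 and all 6 of AFF4 below 0 in both panels, and the points of HEXIM1 lie above 0 in TSA libraries only.

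HEXIM1 under TSA was higher in cells called S or G2/M than in those called G1, in both libraries. Among G1 cells, in CPM without TMM scaling, it stood at 24.7 and 45.6 CPM under DMSO, 41.9 and 46.6 CPM under TSA and 30.2 and 23.9 CPM under E6R. Among G2/M cells the values were 25.2 and 37.2, 76.7 and 67.8, and 25.8 and 20.04 CPM. The DMSO and TSA libraries overlapped in G1 and did not in G2/M or in S (12.4 and 37.6 against 66.6 and 77.6 CPM). Cells called G1 were few, 317 and 141 under DMSO, 480 and 268 under TSA and 423 and 259 under E6R, and the values of DMSO rest on 22 and 18 UMIs in G1 and 8 and 13 in S. Most thinned cells were called G2/M: 55.2% and 82.8% under DMSO, 62.7% and 76.6% under TSA, and 59.3% and 65.0% under E6R. These shares differ widely between libraries of a group, and whether the calls give the true phases was not tested. Phase calls also read RNA that is free in the well, whose part in them was not tested. BRD3 fell under TSA among G1 cells too (-1.07, adjusted p = 0.0265 by edgeR).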

How the data were processed

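The authors deposited 1 matrix of whole-number UMI counts per library, not normalized, with gene and barcode lists. Per the submitters' processing notes, STARsolo 2.7.9a and the build GRCh38 were used, while annotation, counting strand and barcode choice are not given in the sources used here. Counts of cells (500 or more genes, at most 20% MT- UMIs) were summed per library and tested with edgeR 4.0.16 (R 4.3.3, TMM, filterByExpr, quasi-likelihood test, all 6 libraries in 1 fit, 3 residual degrees of freedom, common biological coefficient of variation 0.288), with p-values adjusted by Benjamini-Hochberg over 16763 genes. DESeq2 1.42.0 was an alternative. Fold changes are first group against second, and intervals cover 95%. Intervals of shares (Clopper-Pearson) and UMI ratios cover counting error only. Doublets were not called. Removing the deepest 5% of cells was an alternative. Cells were thinned to 1000 UMIs and given a phase by scanpy 1.11.5. The 8 genes and the lists were chosen with earlier results of these data known. The rule named all 8 genes, in each list up to 3 called genes at 20 CPM or more with the largest changes, and the 2 genes most like each called member. HEXIM2, ELL, EAF2, LEO1 and SSRP1 were named after their values were seen. Of the lists 1 gene, and of the most alike genes 1, are not reported here.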

Additional observations from a re-analysis of the deposited data

Results flagged for a closer look

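Some differences between cell cycle phases went one way in both libraries of a treatment and the other way in both libraries of another. None of these differences between treatments was tested, and each rests on 2 libraries per group. For HEXIM1, cells called S stood above cells called G1 by 0.70 on the log2 scale under TSA and below them under DMSO (-0.57) and E6R (-0.32), differences of 1.26 between TSA and DMSO and -1.01 between E6R and TSA. The S values of DMSO rest on 8 and 13 HEXIM1 UMIs and its G1 values on 22 and 18. For HEXIM1 in G2/M the means were 0.69, -0.18 and -0.25, differences of 0.88 between TSA and DMSO and -0.94 between E6R and TSA. With the 5% of cells with most UMIs left out, 3 of 6 libraries were above 0 in G2/M and 2 of 6 in S, in place of 2 of 6 in each.

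CDK9 in S stood at -0.18 under DMSO, 0.08 under TSA and 0.10 under E6R, differences of 0.26 for TSA and 0.27 for E6R. Single libraries lay near 0, at -0.049 for DMSO replicate 1 and 0.015 for E6R replicate 1. The DMSO values rest on 22 and 16 CDK9 UMIs in S and 32 and 23 in G1. BRD3 in G2/M stood at 0.14 under DMSO and -0.08 under TSA, a difference of -0.21, with DMSO replicate 2 at 0.008.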

How the results depend on the processing

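Of 20 alternatives, the direction of HEXIM1, BRD3, LARP7, CDK9, CCNT2 and AFF4 between TSA and DMSO held in each, and HEXIM1 kept its call in 18 and BRD3 in 19. Adjusted p of HEXIM1 ranged from 1.33e-05 to 0.298 and that of BRD3 from 2.40e-06 to 0.0568. Of the 8 genes, those called between TSA and DMSO (2) became 4 with total counts, DESeq2, the replicate block or without mitochondrial and ribosomal protein genes, 1 in cells called G1, and 1 to 4 without single libraries. Between E6R and TSA the 5 became 6 with DESeq2, where LARP7 was added, 3 with thinned cells and 2 in G1 cells, and the count was lower without some single libraries. List calls between TSA and DMSO (16) were 7 in G1 cells and 4 to 16 without single libraries, those between E6R and TSA (17) 9 to 17 without single libraries, and those between E6R and DMSO (0) 1 with DESeq2 (SUPT16H) and 1 without the count filter (POLR2B). Counts over all genes ran from 1416 to 6047, 0 to 1095 (no count filter) and 2628 to 7572 for TSA against DMSO, E6R against DMSO and E6R against TSA. Leaving out a library also changes how many genes are tested. The cause of the other changes was not tested.

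Uncalled values that changed sign were the following. TSA against DMSO, BRD2 was 0.040 with all barcodes and -0.10 to 0.15 without single libraries, and CCNT1 -0.21 with total counts, -0.020 with thinned cells and -0.037 to 0.27 without single libraries. E6R against DMSO, BRD3 was 0.035 without the count filter and LARP7 0.022 with DESeq2, 0.12 without the count filter and 0.095 with all barcodes. CCNT2 was -0.028 with thinned sums and -0.051 with thinned cells. AFF4 was -0.081 with total counts, -0.041 at 1000 genes per barcode, -0.028 with thinned sums and -0.11 in G1 cells. Without single libraries the values of E6R against DMSO ran from -0.18 to 0.10 (BRD3), -0.39 to 0.33 (HEXIM1), -0.083 to 0.17 (LARP7), -0.47 to 0.28 (CDK9), -0.025 to 0.43 (CCNT2) and -0.053 to 0.28 (AFF4). Shares without thinning put TSA above DMSO by 3.32 (BRD2), 2.62 (LARP7), 7.11 (CCNT1) and 0.0459 (CCNT2) percentage points, and E6R above DMSO by 3.35 (BRD2), 9.14 (BRD3), 4.79 (HEXIM1), 9.75 (LARP7), 5.24 (CDK9) and 5.11 (CCNT2). At 500 UMIs AFF4 was 0.45 higher under E6R than TSA. S minus G1 turned to 0.044 for CDK9 and -0.20 for CCNT1 without the 5% of cells with most UMIs.

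Libraries of the 3 groups share the replicate numbers 1 and 2, and deviations of same-numbered libraries from their group means correlated at 0.242 (DMSO and TSA), 0.564 (DMSO and E6R) and 0.166 (TSA and E6R) over 7515 genes. They share only a number. With that number as a block, 4 of the 8 genes were called between TSA and DMSO (BRD3, HEXIM1, CDK9 and CCNT2), 0 between E6R and DMSO and 5 between E6R and TSA, and all genes called were 6047, 19 and 7567.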
